A study of Medicago truncatula and Hordeum vulgare with 90 samples.

Results

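Roots of the Medicago truncatula mutant nsp1-1 were compared with roots of its wild type, A17, when both phosphate (P) and nitrate (N) were left out of the medium, the regime called -P-N. The comparison consisted of the 6 libraries labelled with these genotypes and this regime, 3 from nsp1-1 (nsp1 from here on) and 3 from A17, out of 90 libraries in the series. Seedlings of both genotypes grew for 15 days on a plate medium called modified BNM, and RNA was taken from whole roots. The nsp1-1 allele is carried in the A17 background, so both groups share that background and the absence of both nutrients. The same genotypes were also sequenced with both nutrients (+P+N), without N (+P-N) and without P (-P+N), again with 3 libraries each, and the nsp2-2 mutant (nsp2) of the same background was sequenced in all 4 regimes. Each mutant was represented by a single allele, and whole roots mix all cell types, so fewer cells of a type and less RNA per cell cannot be told apart.

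NSP1 and NSP2 are transcription factors of the GRAS family that were found through their requirement for root nodules, and they also act in the symbiosis with arbuscular mycorrhizal fungi. Starved roots make more strigolactones, hormones that also leave the root and stimulate these fungi. Strigolactones are apocarotenoids, that is, products cut from carotenoids, so their synthesis draws on the plastid pathway that makes carotenoids. The question addressed here was which genes need NSP1 for their level in roots starved of both nutrients.

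The 6 libraries held 19459412 to 25030726 counts assigned to genes, and a principal component with 43.8% of the variance separated the genotypes, at -16.9 to -15.9 in A17 and 12.4 to 19.3 in nsp1. The second component, with 19.7%, spread the nsp1 libraries, from 20.3 in replicate 1 to -16.3 in replicate 2. All pairs of replicates differed by more than counting noise, with a chi-square per gene of 3.57 to 7.53, where counting noise alone gives values near 1. The identifiers of the count table were paired with names only for the 8 genes that the study prints with both, so the level of NSP1 itself, markers of root or other tissue and most gene families could not be read.

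Starved of both nutrients, nsp1 and A17 differed in 590 genes at an adjusted p under 0.05 (edgeR quasi-likelihood test), 2.4% of the 24630 genes tested. Of these, 417 were higher in nsp1 (1.69%) and 173 were lower (0.702%). Most differences were small. The genes that rose had a median fold of 1.52 and those that fell a median fold of 1.66, and 280 of the 590 differed by no more than 1.5-fold. A long tail of large differences stood beside them, with 66 higher and 32 lower genes past 4-fold, and 29 higher and 12 lower genes past 16-fold. The called genes were not confined to faint transcripts, since their median level in the higher group was 19.3 CPM, the counts scaled to library size, for those higher in nsp1 and 17.9 CPM for those lower, and 558 of the 590 reached 1 CPM there. In all 590 the CPM values of the nsp1 and A17 libraries did not overlap, as was the case for 4876 genes, or 19.8%, of all those tested.

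**Figure D1:**
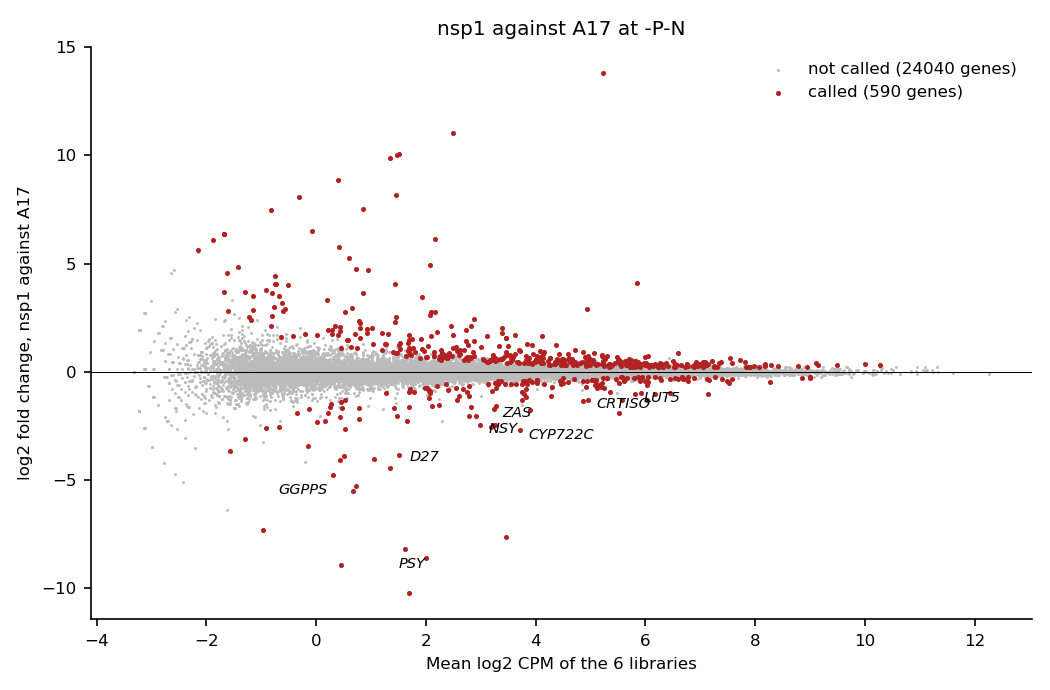
Each point is a gene, at its mean log2 CPM over the 6 libraries on the x axis and the log2 fold change of nsp1 against A17 at -P-N on the y axis, with the 590 called genes in red and the carotenoid, strigolactone and zaxinone genes labelled. Fitted values of called genes reach 13.80 above and 10.22 below 0 on the log2 scale at low and middle levels, while most of those above 6 on the x axis lie close to 0.

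The number of calls rested on single libraries. Without nsp1 replicate 3 it fell to 271, without A17 replicate 2 to 333 and without A17 replicate 1 to 373, whereas 919 genes passed once nsp1 replicate 1 was left out. In each of the 6 fits that leave out a library, 230 of the 590 genes (39.0%) passed with the same sign, 156 higher and 74 lower. The genes that passed throughout included many of the largest differences. Of the 98 genes past 4-fold, 70 (71.4%) passed in every one of these fits, against 53 of the 280 (18.9%) that differed by no more than 1.5-fold.

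The genes with a name belong to the route from plastid isoprenoids to carotenoids, strigolactones and zaxinone, and all 8 were lower in nsp1 at -P-N. Their log2 fold changes had a median of -2.58, against -0.0033 over all genes tested. The study picked these genes partly on these libraries, so their count is a description and not independent evidence of a direction. For all 8, each of the 3 nsp1 libraries lay below each of the 3 A17 libraries, as in 9.59% of all genes tested, and A17 replicate 3 was the highest library. All 8 stayed past the threshold in the 12 alternative fits, those without a library included. Their identifiers place them on chromosomes 1 (CRTISO, D27), 2 (NSY), 3 (PSY, ZAS), 5 (GGPPS), 7 (LUT5) and 8 (CYP722C) of the Mt4.0v1 genome, by the digit after the prefix.

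The genes for the steps that feed the carotenoid pathway had the largest folds of the 8. GGPPS (Medtr5g019460), the synthase of the geranylgeranyl diphosphate from which carotenoids are built, was at 1.97, 1.91 and 2.70 CPM in A17 and at 0.0978, 0.0823 and 0.0439 CPM in nsp1. These values rest on 163 counts in A17 and 5 in nsp1, so the mutant was close to the limit of detection in every library. The log2 fold change was -4.78 (SE 0.41, adjusted p = 4.9e-05). PSY (Medtr3g083630) encodes phytoene synthase, the enzyme of the first committed step to carotenoids. It was at 4.42, 4.67 and 8.67 CPM in A17, 436 counts in all, and a single count was found in the 3 nsp1 libraries, in replicate 3. The ratio of the groups was 392, with a 95% exact counting interval of 70.0 to 15520 that covers counting error only (adjusted p = 1.6e-05).

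The later carotenoid genes differed by smaller factors. CRTISO (Medtr1g054965), the carotenoid isomerase that yields lycopene, was at 42.8, 42.1 and 47.9 CPM in A17 and 16.97, 17.3 and 19.2 CPM in nsp1, a log2 fold change of -1.30 (SE 0.08, adjusted p = 2.1e-06). LUT5 (Medtr7g079440), a cytochrome P450 that hydroxylates carotene rings on the way to lutein, was at 72.4, 68.9 and 82.6 CPM in A17 and 35.4, 40.4 and 35.4 CPM in nsp1. The 2.00-fold difference of LUT5 was the smallest of the 8 and still far outside the spread within either group (SE 0.08 on the log2 scale, adjusted p = 2.3e-05). NSY (Medtr2g086700), named for neoxanthin synthase, was at 11.9, 12.6 and 15.2 CPM in A17 and 1.81, 2.80 and 2.59 CPM in nsp1, a log2 fold change of -2.44 (SE 0.16, adjusted p = 5.4e-06).

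The genes that lead from carotenoids to apocarotenoids were lower as well. D27 (Medtr1g471050) encodes the beta-carotene isomerase that opens strigolactone synthesis. It was at 3.74, 5.10 and 6.66 CPM in A17 and 0.196, 0.247 and 0.614 CPM in nsp1, the highest of the nsp1 values being that of replicate 3 (log2 fold change -3.83, SE 0.35, adjusted p = 8.8e-05). CYP722C (Medtr8g076940), a cytochrome P450 known from cowpea and tomato to act late in strigolactone synthesis, was at 19.99, 21.2 and 26.4 CPM in A17 and 3.08, 3.66 and 3.51 CPM in nsp1. Its 6.53-fold difference was measured on 1681 counts in A17 and 232 in nsp1 (log2 fold change -2.71, SE 0.13, adjusted p = 4.6e-07). ZAS (Medtr3g110195), a cleavage enzyme known from rice to make the apocarotenoid zaxinone, was at 14.9, 11.9 and 16.2 CPM in A17 and 4.74, 4.49 and 3.95 CPM in nsp1, a log2 fold change of -1.70 (SE 0.14, adjusted p = 3e-05).

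**Figure D2:**
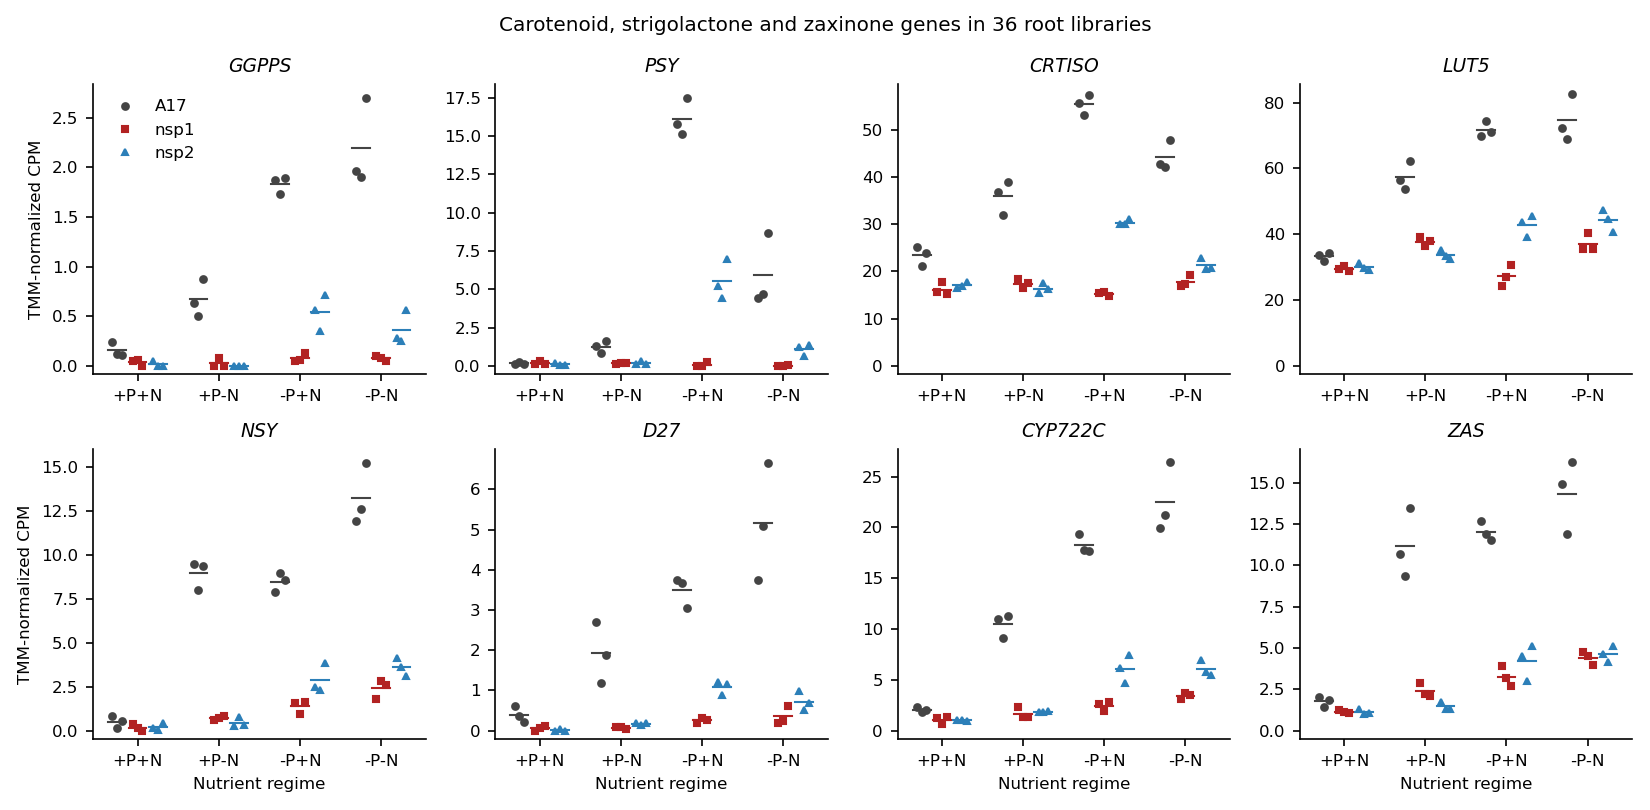
Each panel shows a named gene, with the nutrient regime on the x axis and the CPM of every library on the y axis (normalized by TMM, a scaling of library sizes), A17 as grey circles, nsp1 as red squares and nsp2 as blue triangles, and a bar at each group's mean of 3 libraries. In A17 all 8 genes stand higher at -P-N than at +P+N, and at -P-N the nsp1 libraries lie below the A17 libraries in every panel.

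Starvation of both nutrients raised all 8 genes in A17, as it did 30.4% of all genes tested. The median log2 fold change of the 8 from +P+N to -P-N was 3.58. These values share the A17 libraries at -P-N with the comparison above. The study picked the genes partly for a response to starvation, so that all 8 rose is a description only. In nsp1 the same change of medium raised 5 of the 8 genes, while of all genes tested 30.7% rose and 30.1% fell. NSY rose by a log2 fold change of 4.65 in A17 (SE 0.26) and by 3.68 in nsp1 (SE 0.48), D27 by 3.72 and 2.56, ZAS by 2.99 and 1.95, CYP722C by 3.43 and 1.66, and LUT5 by 1.15 and 0.34. These genes therefore still responded to starvation in the mutant, at lower levels. D27 at -P-N in nsp1, at 0.352 ± 0.228 CPM (SD, n = 3), was about as low as D27 at +P+N in A17, at 0.390 ± 0.197 CPM (SD, n = 3). GGPPS and CRTISO did not pass in nsp1, at 0.91 (SE 1.10, adjusted p = 0.5) and 0.15 (SE 0.09, adjusted p = 0.17). PSY went the other way in the mutant, from 10 counts at +P+N to 1 at -P-N, a 12.4-fold drop with a 95% exact counting interval of 1.77 to 539.6 (adjusted p = 0.026), whereas it rose by 5.20 in A17 (SE 0.45, adjusted p = 1.1e-06). Of the 10 counts in nsp1 at +P+N, 6 were in replicate 2, and this drop was not put through the alternative fits.

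The comparison of nsp1 with A17 in the other regimes used libraries that share none with -P-N. All 8 genes were lower in nsp1 in both regimes that lacked a single nutrient (+P-N and -P+N), where 2.49% and 17.3% of all genes tested were called lower. The study's choice of genes drew on all starvation regimes, so this count too is a description and no independent check. At +P+N, where 2.77% were called lower, the only one of the 8 that passed was CRTISO, with a log2 fold change of -0.54 (SE 0.09, adjusted p = 0.0037). Still, 5 of the 8 had an unadjusted p under 0.05 there. The median log2 fold change of the 8 was -0.79, against -0.0036 over all genes tested, and only PSY was fitted higher, by 0.25 (SE 0.73). D27 passed in 1 of 12 alternatives at +P+N and CYP722C in 2. GGPPS, PSY, NSY and D27 gave few reads there, with 8 to 27 counts each over the 3 A17 libraries, and PSY gave 8 counts in A17 and 10 in nsp1. Whether the nsp1 difference at -P-N was larger than at +P+N was tested as an interaction of genotype and regime, for which 4.68% of all genes tested passed. PSY, CRTISO, LUT5, CYP722C and ZAS passed, by -8.39 (SE 1.30, adjusted p = 0.0022, a fitted value that rests on the single count in nsp1), -0.76 (SE 0.12, adjusted p = 0.0027), -0.82 (SE 0.10, adjusted p = 0.00061), -1.77 (SE 0.32, adjusted p = 0.0058) and -1.05 (SE 0.28, adjusted p = 0.041) on the log2 scale. The study's choice of genes by starvation response and NSP dependence bears on how many of the 8 passed. The interaction of ZAS was lost without any one of 10 of its 12 libraries, all except A17 -P-N replicate 2 and nsp1 -P-N replicate 1, with adjusted p up to 0.13. GGPPS (-2.86, SE 1.38, adjusted p = 0.28), NSY (-0.97, SE 0.81, adjusted p = 0.55) and D27 (-1.15, SE 1.39, adjusted p = 0.71) did not pass, and their errors were wide.

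Against the regimes that lacked a single nutrient, few interactions passed. None of the 8 passed against +P-N with edgeR (0.605% of all genes tested did), although 5 had an unadjusted p under 0.05 and 3 passed with DESeq2. The nearest were PSY, with a log2 difference of -5.29 (SE 1.17, adjusted p = 0.053), and NSY, whose drop was smaller at -P-N by 1.17 (SE 0.27, adjusted p = 0.058). PSY passed under 6 of 18 alternatives (adjusted p 0.0017 to 0.13 over all 18) and NSY under 5 (0.0079 to 0.19). Against -P+N, where 17.2% of all genes tested passed, CRTISO and LUT5 fell less at -P-N, by 0.57 (SE 0.10, adjusted p = 0.002) and 0.41 (SE 0.12, adjusted p = 0.029). CRTISO kept this call in all 18 alternatives and LUT5 in 11. The call of LUT5 was lost without A17 replicate 1 or 2 or nsp1 replicate 2 at -P-N, and without A17 replicate 2 or 3 or nsp1 replicate 1 or 2 at -P+N, with adjusted p of 0.051 to 0.091.

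In the nsp2 mutant at -P-N all 8 genes were lower than in A17 as well (2.98% of all genes tested were). The study's choice of genes also drew on dependence on NSP1 or NSP2, so this count is a description only. A direct test of nsp1 against nsp2, for which 4.18% of all genes tested passed, separated the mutants for PSY and CYP722C. PSY was at 1.21, 0.669 and 1.36 CPM in nsp2, 76 counts in all, against the single count in nsp1, a ratio of 72.9 with a 95% exact counting interval of 12.7 to 2917 (adjusted p = 0.00093). CYP722C was at 6.91, 5.73 and 5.46 CPM in nsp2, above the 3 nsp1 libraries, a log2 fold change of -0.81 for nsp1 (SE 0.16, adjusted p = 0.012) that was lost without nsp1 replicate 3 (adjusted p = 0.053). The other 6 genes did not pass. Their means were all lower in nsp1 than in nsp2, from GGPPS at -2.23 (SE 0.66, adjusted p = 0.098) to ZAS at -0.09 (SE 0.15, adjusted p = 0.86). GGPPS, CRTISO and LUT5 passed this test only with all 36 libraries in one fit, at adjusted p = 0.016, 0.041 and 0.034.

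Among the genes that passed in every fit without a library and reached 1 CPM in the higher group, those with the largest fitted folds had no name in the sources used here, and a pair in each direction is described. They had no count in one genotype, so their folds are lower bounds that do not rank them against each other or against PSY. Medtr2g026240, on chromosome 2 by its identifier, had no count in the A17 libraries and 71.5, 84.3 and 68.7 CPM in nsp1, which makes it at least 1883-fold higher, set against 3 counts over the A17 group (adjusted p = 3.9e-09). Medtr8g042355, on chromosome 8, also had no count in A17 and was at 12.03, 11.03 and 10.2 CPM in nsp1, at least 277-fold higher (adjusted p = 4e-07). Both genes were also expressed in nsp1, and at or near 0 in A17, in the other regimes. Medtr2g026240 had means of 69.2 ± 4.62 CPM at +P+N, 87.8 ± 3.39 CPM at +P-N and 52.7 ± 3.44 CPM at -P+N in nsp1 (SD, n = 3), against 1 count in the 9 A17 libraries of these regimes, and Medtr8g042355 had 16.1 ± 0.538, 20.8 ± 1.72 and 4.13 ± 0.694 CPM (SD, n = 3), against none. In nsp2 at -P-N, 3 counts of Medtr2g026240 and none of Medtr8g042355 were found.

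The pair of unnamed genes lower in nsp1 was highest in A17 without P. Medtr0045s0060, on a scaffold outside the chromosomes, was at 5.48, 5.56 and 7.84 CPM in A17 and had no count in nsp1, at least 140-fold lower (adjusted p = 8.4e-06). It had no count in any of the 18 libraries at +P+N and +P-N, those of nsp2 included, and reached 33.6 ± 6.02 CPM in A17 at -P+N against 0.105 ± 0.108 CPM in nsp1 (SD, n = 3). In nsp2 it lay between the 2 genotypes, at 1.14 ± 0.301 CPM at -P-N (SD, n = 3), above nsp1 (adjusted p = 0.00092). Medtr0011s0280, also on a scaffold, was at 2.65, 2.10 and 2.83 CPM in A17 and had no count in nsp1, at least 56.6-fold lower (adjusted p = 6.5e-05). At +P+N it gave 8 counts in A17 and 5 in nsp1, and the interaction with +P+N passed (-8.01, SE 1.53, adjusted p = 0.0099). This call was lost without nsp1 +P+N replicate 3 (adjusted p = 0.068), and DESeq2 gave no adjusted p for it.

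**Figure D3:**
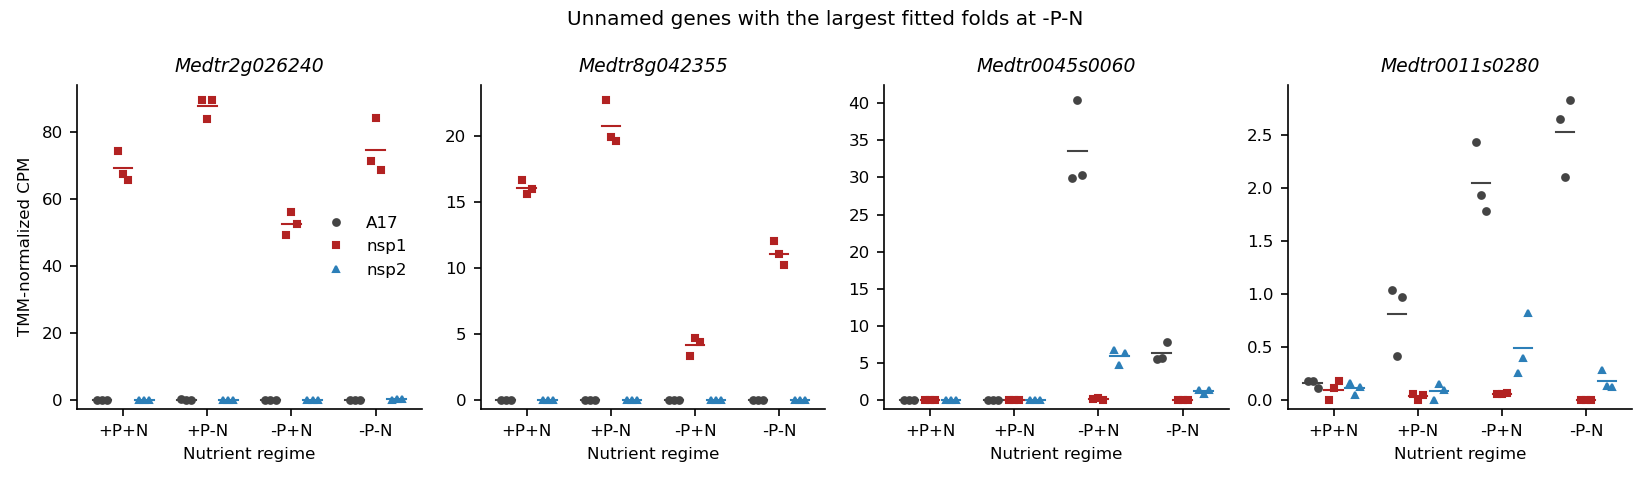
Each panel shows an unnamed gene, with the nutrient regime on the x axis and the TMM-normalized CPM of every library on the y axis, A17 as grey circles, nsp1 as red squares and nsp2 as blue triangles, and a bar at each group's mean of 3 libraries. Medtr2g026240 and Medtr8g042355 are on in the nsp1 libraries of all regimes and at or near 0 elsewhere, and the other genes are highest in A17 without P.

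Across the whole set, 9 of the 590 genes had no count in one genotype and at least 1 CPM in the other at -P-N, 7 of them without a count in A17 and 2 without one in nsp1. Of the 7 without a count in A17, 5 also separated all 12 nsp1 libraries from all 12 A17 libraries over the 4 regimes. Neither of the 2 without a count in nsp1 did.

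The 590 genes were then read in the other regimes. Of the 417 genes higher in nsp1 at -P-N, 96 (23.0%) passed as higher at +P+N too, as did 174 (41.7%) without N and 215 (51.6%) without P, regimes in which 3.58%, 1.96% and 15.3% of all genes tested were called higher. Of the 173 lower genes, 56 (32.4%), 89 (51.4%) and 122 (70.5%) were called lower in these regimes, beside 2.77%, 2.49% and 17.3% of all genes tested. The overlap was thus largest in number without P, the regime in which 32.6% of all genes tested were called in either direction. Relative to the shares over all genes tested it was largest without N and smallest without P. Calls in the opposite direction were fewer than those in the same direction. In the same order of regimes they numbered 17, 7 and 20 among the 417 higher genes, where 2.77%, 2.49% and 17.3% of all genes tested were called lower. Among the 173 lower genes they numbered 19, 0 and 4, where 3.58%, 1.96% and 15.3% of all genes tested were called higher. The median log2 fold change of the 417 was 0.12, 0.35 and 0.45 in the 3 regimes and that of the 173 was -0.26, -0.42 and -0.72, beside medians of -0.0036, 0.0003 and 0.0124 over all genes tested.

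**Figure D4:**
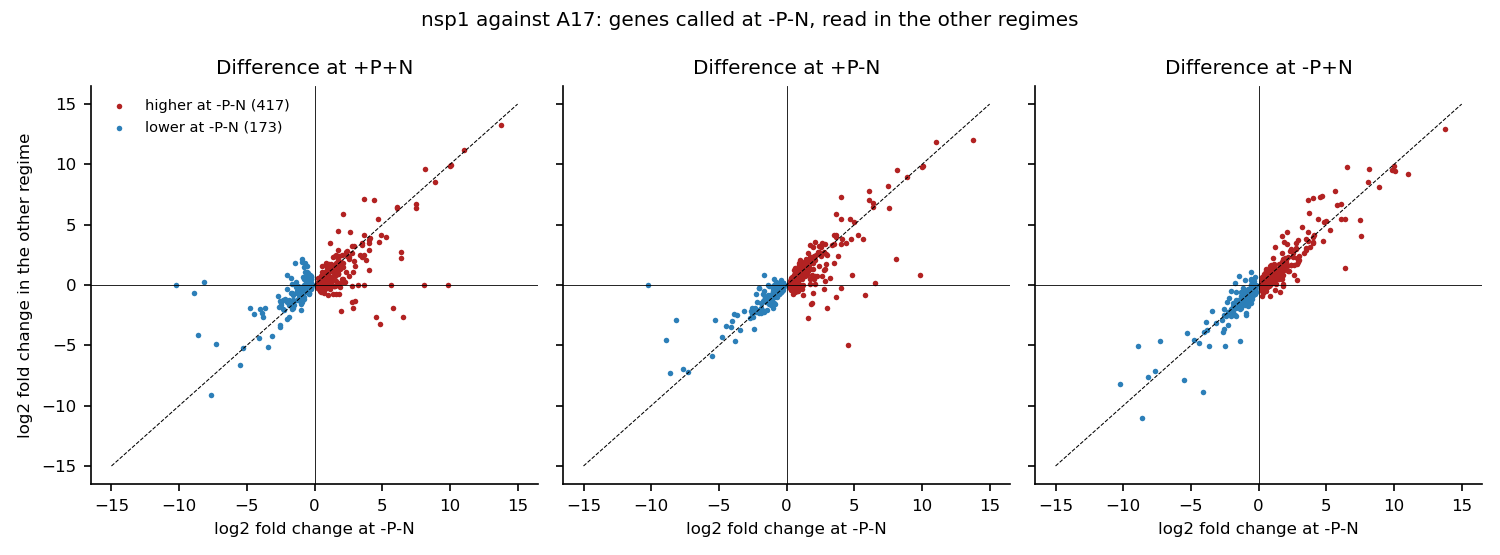
Each point is a gene called at -P-N, with the log2 fold change of nsp1 against A17 at -P-N on the x axis and that in another regime on the y axis, the 417 higher genes in red and the 173 lower genes in blue, and a dashed line of equal values. Many genes with large folds lie near the dashed line in all 3 panels, while others lie near 0 on the y axis at +P+N.

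Genes that differed in every regime had larger median folds at -P-N than the rest, although not every gene with a large fold was among them. In the same direction in all 4 regimes, 70 genes were higher and 48 were lower in nsp1, with median log2 sizes of 2.23 and 1.59 at -P-N. Another 132 higher and 37 lower genes were called at -P-N and in no other regime, with medians of 0.40 and 0.45. Of the genes past 4-fold, 38 of the 66 higher and 18 of the 32 lower ones were called in all 4 regimes. GGPPS, PSY, NSY, D27, CYP722C, Medtr0045s0060 and Medtr0011s0280, all past 4-fold, were not. Of the 118 genes shared by all regimes, 88 (74.6%) passed in each fit that leaves out a library at -P-N, against 30 of the 169 (17.8%) called at -P-N alone. Large folds passed these fits more often, so these shares do not separate the sharing of regimes from the size of the fold.

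**Figure D5:**
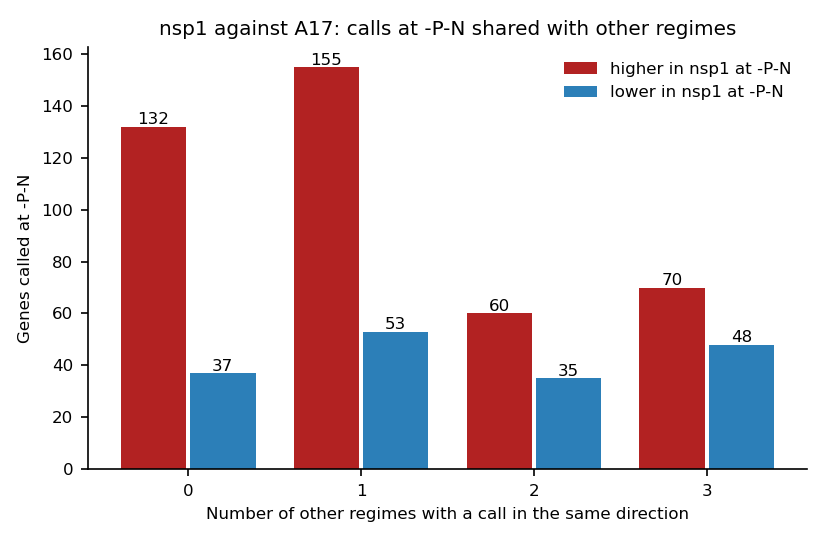
Bars give the number of genes called at -P-N (y axis) by the number of other regimes in which nsp1 and A17 differed in the same direction (x axis), for genes higher (red) and lower (blue) in nsp1. The tallest bars are those of higher genes with 0 and 1 other regime (132 and 155 genes), and 48 of the 173 lower genes stand at 3.

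A call in one regime and not in another does not show that the difference depended on the regime, so the interactions were fitted for the same genes. Against +P+N, where 4.68% of all genes tested passed, 130 of the 417 higher genes and 61 of the 173 lower genes had a different nsp1 effect, and for 129 and 59 of them it was larger at -P-N, in the direction of the call. Against -P+N the interaction passed for 94 of the 417 and 40 of the 173 genes, not far from the 17.2% of all genes tested. The effect was larger at -P-N for 85 of these higher genes and for 13 of these lower genes. Against +P-N, where 0.605% of all genes tested passed, it did so for 26 higher and 8 lower genes, all larger at -P-N. Since the genes were chosen for their difference at -P-N and the interactions use the same libraries, the direction of these counts follows partly from that choice. Of the 169 genes called at -P-N alone, 93 higher and 17 lower ones passed at least 1 interaction. Of the 118 genes called in all regimes, 67 higher and 36 lower ones passed none. The share of all genes tested that passed at least 1 interaction was not counted. It is no lower than the 17.2% that passed against -P+N, so these counts are a description only.

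The interactions depended on single libraries to different degrees. Over all genes, 149 passed against +P-N, a number that fell to between 1 and 4 without any one of 8 libraries (A17 replicates 1 and 2 and nsp1 replicates 2 and 3 at -P-N, A17 replicates 2 and 3 and nsp1 replicates 1 and 3 at +P-N), and rose to 313 without A17 -P-N replicate 3, 459 without A17 +P-N replicate 1 and 496 without nsp1 -P-N replicate 1. Against +P+N, 1152 genes passed, falling to 418 without nsp1 -P-N replicate 3, 554 without A17 -P-N replicate 2, 585 and 615 without nsp1 +P+N replicates 1 and 3, and 684 and 682 without A17 +P+N replicates 1 and 3. The 4228 genes that passed against -P+N stayed between 3025 and 4681.

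A stricter reading asked which genes kept the genotypes apart in every library. For 53 genes (0.215% of those tested) all 12 nsp1 libraries lay above all 12 A17 libraries over the 4 regimes, and for 36 genes (0.146%) all lay below. Of these, 49 and 33 were called at -P-N. The nsp2 libraries were then placed beside these genes. Among the 49 genes higher in nsp1, 37 had all their nsp2 libraries on the side of A17 and 4 had them on the side of nsp1. In the other 8, some nsp2 libraries reached the nsp1 values and others the A17 values. Among the 33 lower genes, 11 were on the A17 side and 9 on the nsp1 side, and in 13 the nsp2 libraries reached the values of both genotypes. Of the 36 higher genes that also differed by more than 4-fold at -P-N, 31 had their nsp2 libraries on the A17 side and 3 on the nsp1 side, and of the 16 such lower genes 5 were on the A17 side and 5 on the nsp1 side.

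The 590 genes lay on all chromosomes. By the chromosome in the identifier, the share of tested genes that were called ranged from 1.81% on chromosome 1 to 3.15% on chromosome 5, with 3.41% of the genes on scaffolds. At the share over all genes, a run of 50 neighbouring tested genes holds 1.20 called genes. The fullest run held 9 (18.0%), on chromosome 8, followed by 8 (16.0%) on chromosome 7 and 5 or 6 on each of the other chromosomes.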

How the data were processed

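Reads of poly(A)-enriched RNA from whole roots were mapped by the authors with STAR to the M. truncatula genome Mt4.0v1 and counted per gene with featureCounts, and whole-number counts were deposited for 36 libraries and 50894 genes. The handling of reads that map to several genes, and of strand, is not given in the sources used here. Groups and replicate numbers came from the sample labels. Nothing says that replicates came from separate plants, so p-values measure the spread between these libraries.

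Genes were kept where at least 3 of the 36 libraries reached the CPM that 10 counts make in the median library (0.492), which left 24630. CPM were TMM-normalized over the 36 libraries. The quasi-likelihood test of edgeR was fitted to the 6 libraries of each pair of groups, and to 12 libraries for interactions. Adjustment of p-values was by Benjamini-Hochberg over the genes tested (threshold 0.05). A standard error is the size of the log2 fold change over the root of F. A fold against a group without counts was set against 3 counts over the group, and with 1 to 3 counts a 95% exact counting interval is given. Fits were tested on simulated data that left out genes with few counts. The planted changes were larger than most differences called at -P-N, so small folds were not covered.

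Alternatives were a filter in at least 1 library, no filter, DESeq2 in place of edgeR, size factors by RLE, a block for the replicate number, 1 fit over all 36 libraries, a fold over 1.5 and each library left out. The members, lists and named genes were chosen with earlier results of these data known. Named were the 8 genes to which the study gives a name and identifier and, of those that passed in every fit without a library, with at least 1 CPM in the higher group, the 2 with the largest fold in each direction. Other gene lists (strigolactone and karrikin signalling, gibberellin, flavonoid, phosphate starvation, nitrogen, LysM receptor, symbiosis, nodulin, defence, peroxidase, cell wall, cytochrome P450, terpene, GRAS, peptide, clock, ribosomal, histone, heat shock and tissue marker genes) could not be read, because the gene table used here, of assembly MtrunA17r5.0-ANR, matched 0 of the identifiers. Hairy root and barley libraries were not used here. Versions used were DESeq2 1.42.0, edgeR 4.0.16 and limma 3.58.1 under R 4.3.3, with figures drawn in matplotlib 3.10.9 under Python 3.11.15.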

Additional observations from a re-analysis of the deposited data

Results flagged for a closer look

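For 6 genes the difference between nsp1 and A17 at -P-N differed from that at +P+N by the interaction test, and each was lower in nsp1 by more at -P-N. The log2 difference between the regimes was -8.39 for PSY, -0.76 for CRTISO, -0.82 for LUT5, -1.77 for CYP722C, -1.05 for ZAS and -8.01 for Medtr0011s0280. The value of Medtr0011s0280 rests on no count in nsp1 at -P-N and is no bound, and that of PSY on a single count.

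For CRTISO and LUT5 the nsp1 difference at -P-N also differed from that at -P+N, and was smaller at -P-N by 0.57 and 0.41 on the log2 scale.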

How the results depend on the processing

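The 12 genes described by name or identifier kept their direction and their call at -P-N in all 12 alternatives each. Leaving out a single library gave 271 to 919 genes at -P-N, 643 to 2346 at +P+N, 635 to 1100 at +P-N, 5677 to 7657 at -P+N, 592 to 977 for nsp1 against nsp2, 91 to 119 for genes called in all regimes (for which only the 6 libraries at -P-N were left out), and 418 to 1577, 1 to 496 and 3025 to 4681 for the interactions of -P-N with +P+N, +P-N and -P+N. Without nsp1 -P-N replicate 1 the 919 calls were 510 higher and 409 lower, a more even split than the 417 and 173 found with it.

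A required fold over 1.5 left 310 of the 590 calls at -P-N, 463 of 1564 at +P+N, 592 of 1096 at +P-N, 2473 of 8029 at -P+N, and 417 of 1152 and 1432 of 4228 for the interactions with +P+N and -P+N. Without a filter on low counts 937 genes were called at -P-N, 1674 at +P-N and 699 for the interaction with +P-N, for which DESeq2 called 439. With all 36 libraries in one fit the interaction with +P+N held 373 higher and 540 lower calls, against 595 and 557. Of the 590 calls at -P-N, 572 were shared with RLE size factors, 548 with DESeq2 (664 calls) and 424 with the fit of all libraries (563 calls). The causes were not tested.

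The replicate number as a block gave 863 calls at -P-N (585 shared with the 590), 1881 at +P-N and 510 for the interaction with +P-N, and the other counts stayed within 1.5 times. Same-numbered libraries of A17 and nsp1 at -P-N had deviations correlated at 0.12, 0.103 and 8.4e-06 over 21344 genes. Libraries numbered 1 and 2 correlated best with their own number and those numbered 3 did not. The labels give no more than the shared number, and whether same-numbered libraries were handled together was not tested. Counting noise limits genes with few reads in nsp1, such as PSY and GGPPS, whose folds have wide intervals.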
